A study of Mus musculus with 20 samples.

Results

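Ribosome biogenesis and nucleolar genes were followed in mouse erythroid progenitors during the first day with the hormone erythropoietin (Epo) and the first hours without it. The set was a list of 48 named genes, chosen by name but with earlier results of these data known. Each gene was read by the probe set annotated to it alone, and where there were several, by the one with the highest mean over all arrays. Of the 48 genes, 47 had such a probe set, out of 18194 genes tested, and Npm3 was not analysed here. By role, 3 genes belong to RNA polymerase I, 4 to the nucleolar core, 5 to the small nucleolar ribonucleoprotein particles (snoRNPs), 19 to assembly of the small ribosomal subunit and 16 to assembly of the large subunit.

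The cells were colony-forming unit erythroid (CFU-E) progenitors, red cell precursors that need Epo to survive, from livers of E13.5 BALB/c mouse embryos. Other cell types were removed with antibody-coated magnetic beads, after lysis of red cells. In the series with Epo (0.5 U/ml) there were 12 arrays, at each hour of 0 to 8 h and at 14, 19 and 24 h. In the series without Epo there were 8 arrays, at each hour of 0 to 7 h. The design text describes 1 h of starvation straight after the sort for both series, whereas the protocol label of the samples describes a culture with serum and Epo after the sort. Each treatment and time had 1 array, and nothing in the labels says that the times came from separate cultures. The p-values therefore measure the scatter between arrays at successive hours, which may be technical. Precision is limited by how few arrays there are.

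Ribosomes are built in the nucleolus, where RNA polymerase I transcribes the large ribosomal RNA precursor. snoRNPs guide its chemical modification, and separate sets of assembly factors fold and cut it into the RNAs of the small and the large subunit. In erythroid progenitors, which make large amounts of protein while they divide, this machinery is known to be active early and to be wound down as red cells mature.

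The E-box CACGTG is a palindrome that the factor MYC can bind with its partner MAX, and MYC is known for driving many genes of ribosome biogenesis. In the RefSeq promoter table (build GRCm38.p6), 41 of the 47 members had a window from 250 bases before to 50 bases after a start. On either strand, 12 of them held the letters CACGTG (29.3%), against 10.2% of the genes tested on the arrays that had a window and 7.15% of all 32851 promoters of the table. Among the other factors of the pathway it was 12 of 79 (15.2%), and among cytosolic ribosomal protein genes 4 of 40 (10.0%). In 9 of the 12 members the letters lay only after the start, beginning 3 to 41 bases into the transcript, and in 3 (Rrn3, Nop2 and Imp4) they lay before it. By role these were 1 of 3 polymerase I genes, 1 of 3 nucleolar core genes, 0 of 4 snoRNP genes, 6 of 17 small subunit genes and 4 of 14 large subunit genes. For 4 members the 250 bases before a start are shown, with each CACGTG in capitals, so that the 3 promoters with the letters before the start are all shown and those with the letters after it are not. In these bases Rrn3 held it in 2 places, Nop2 and Imp4 in 1 place each, and Rrp9 in none. They were picked because they differ both in this count and in their change without Epo, where Rrp9 moved the most of the 4 and Imp4 did not pass the test. A match describes these letters and is not shown to be a site.
Rrn3 (chr16:13780449-13780698, plus strand): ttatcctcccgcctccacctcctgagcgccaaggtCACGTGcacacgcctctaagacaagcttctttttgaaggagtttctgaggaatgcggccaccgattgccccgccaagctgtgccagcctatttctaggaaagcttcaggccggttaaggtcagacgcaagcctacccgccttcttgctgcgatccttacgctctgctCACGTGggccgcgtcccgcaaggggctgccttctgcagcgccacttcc
Nop2 (chr6:125131633-125131882, plus strand): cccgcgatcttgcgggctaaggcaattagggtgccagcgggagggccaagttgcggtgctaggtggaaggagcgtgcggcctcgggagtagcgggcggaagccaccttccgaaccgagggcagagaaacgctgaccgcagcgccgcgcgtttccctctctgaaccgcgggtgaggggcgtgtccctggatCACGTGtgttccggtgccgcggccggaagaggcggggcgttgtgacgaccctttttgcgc
Imp4 (chr1:34439579-34439828, plus strand): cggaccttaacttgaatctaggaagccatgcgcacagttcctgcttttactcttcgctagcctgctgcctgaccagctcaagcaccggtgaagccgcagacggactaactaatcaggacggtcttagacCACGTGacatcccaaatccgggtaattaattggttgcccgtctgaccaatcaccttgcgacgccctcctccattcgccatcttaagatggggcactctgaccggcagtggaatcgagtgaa
Rrp9 (chr9:106477059-106477308, plus strand): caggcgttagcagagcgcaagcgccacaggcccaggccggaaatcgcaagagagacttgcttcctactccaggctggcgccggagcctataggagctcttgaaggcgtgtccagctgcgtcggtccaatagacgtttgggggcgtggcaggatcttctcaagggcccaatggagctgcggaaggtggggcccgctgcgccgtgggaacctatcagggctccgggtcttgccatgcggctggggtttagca

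All levels are the deposited values, read as log2, on which a difference of 1 is a doubling. The erythroid labels were borne by the transcription factor genes Gata1 (9.81 to 11.4 over the 20 arrays) and Klf1 (11.3 to 12.8), the receptor gene Epor (9.62 to 11.4) and the transferrin receptor gene Tfrc (12.32 to 13.51), while the median over all genes and arrays was 4.90. Of the same marker list, the receptor gene Kit was lower, at 3.60 to 8.39, and Alas2 was at 6.75 to 12.8. The globin gene Hba-a1 was at 3.19 to 3.80. Probe sets that name several genes were not used, so this value may not hold the whole globin signal. Hepatocyte transcripts were also present, with Alb at 6.43 to 13.2 and Afp at 6.92 to 13.03. The series differed already at 0 h, by at least 1 in 436 genes higher and 115 genes lower with Epo. The labels name 0.5 U/ml Epo for the 0 h array of the Epo series too. Array controls differed too. The control for the 5′ end of 18S ribosomal RNA lay at 6.01 to 7.28 at 0 to 7 h with Epo and at 7.34 to 9.4002 without, while its 3′ end lay at 6.76 to 7.62 with Epo and 6.89 to 7.61 without. From 0 h to 7 h without Epo, the control for the 5′ end changed by -1.10 and that for the 3′ end by -0.15. The 3′ actin control lay at 12.75 to 13.18 with Epo and 13.49 to 13.77 without, and the 3′ Gapdh control at 12.47 to 12.94 and 13.09 to 13.44. The lys spike control went the other way, at 7.49 to 8.54 with Epo and 6.64 to 7.26 without. For the BioB spike control the ranges overlapped, at 8.03 to 8.69 with Epo and 7.68 to 8.42 without. The standard deviation over all probe sets was 2.31 on the 24 h array with Epo and 2.42 to 2.58 on the other arrays. In bulk RNA, fewer cells of a type and less RNA per cell cannot be told apart.

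Without Epo, nearly the whole set fell. Over 0 to 7 h, 43 of the 47 members were called lower in a linear fit on the hours (limma, adjusted p under 0.05 over all 18194 genes), and the median fitted change over the 7 h was -1.24. Of all genes tested, 15.4% were called lower and 13.3% higher, with a median of -0.03. No member was called higher, and none passed an unadjusted p under 0.05 in that direction. At 7 h the level was below that of 0 h in 46 of the 47 members, a count not made over all genes. The exceptions to the call were Fbl, Imp4, Rrs1 and Nob1, with fitted changes of -0.09, -0.16, -0.12 and 0.27. All 5 roles took part, with medians of -1.33 for polymerase I, -1.16 for the nucleolar core, -0.999 for snoRNPs, -1.30 for the small subunit and -1.22 for the large subunit. The range of the small subunit genes (-2.31 to 0.27) contained those of the 4 other roles.

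**Figure D1:**
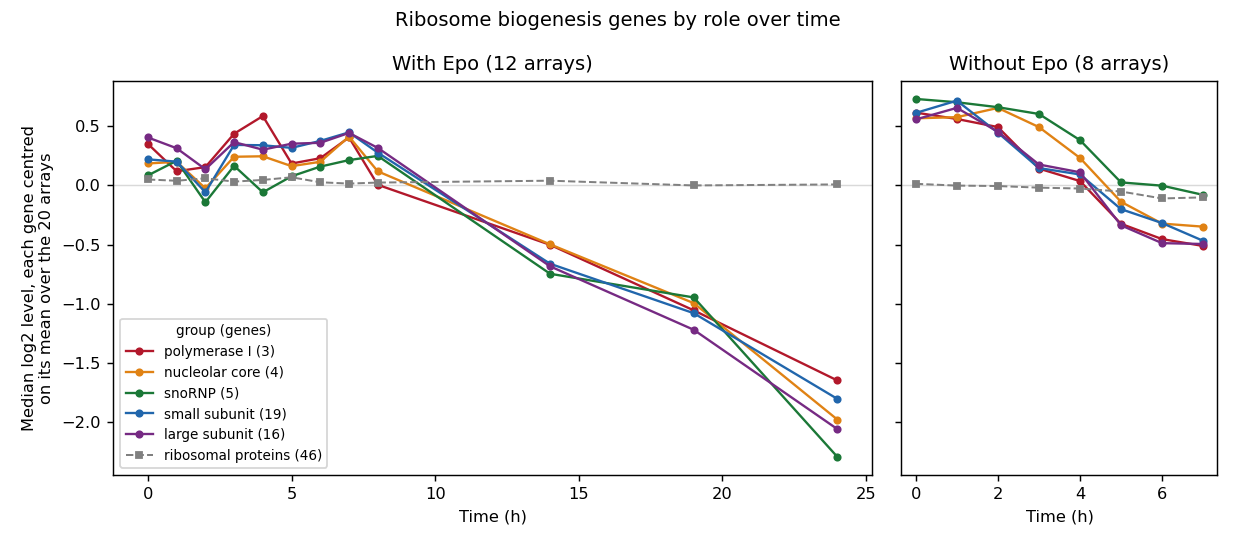
Median log2 level of each role (y axis, each gene centred on its own mean over the 20 arrays) against time in hours (x axis), with Epo on the left (12 arrays) and without Epo on the right (8 arrays). With Epo the 5 roles stay near their starting level up to 8 h and fall by 24 h, without Epo they fall from 2 or 3 h on, and the median of 46 cytosolic ribosomal protein genes (dashed) stays near 0 in both.

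Among the polymerase I genes, Polr1a encodes the largest catalytic subunit. It stood at 8.44, 8.37, 8.44, 8.15, 7.92, 7.498, 7.37 and 7.31 at 0 to 7 h without Epo. Its level was flat to 2 h and lower at each hour after that, a fitted change of -1.33 ± 0.17 (SE, adjusted p = 0.00015 in limma). Polr1b, the second largest subunit, was at 8.87, 8.85, 8.36, 7.82, 7.80, 7.37, 7.30 and 7.25. It lost 1.83 ± 0.19 (SE, adjusted p = 4.5e-05), 3.56-fold, most of it between 1 and 3 h. Rrn3, which brings the polymerase to the ribosomal DNA promoter, changed less, by -0.77, with its highest array at 1 h (8.91) and a level of 8.22 at 7 h.

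In the nucleolar core, the RNA helicase gene Ddx21 was at 9.86, 9.77, 9.52, 9.17, 9.03, 8.57, 8.24 and 8.07 over 0 to 7 h without Epo. It was lower at every hour than at the hour before, and its fitted change was -1.93 ± 0.14 (SE, adjusted p = 1.3e-05). Mybbp1a, a nucleolar protein that binds MYB, changed by -1.40 ± 0.18 (SE, adjusted p = 0.00016). The abundant nucleolar proteins changed less: nucleolin (Ncl) by -0.93 and nucleophosmin (Npm1) by -0.56, both called lower.

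The snoRNP genes split. Nolc1, a chaperone of these particles, changed by -1.80 ± 0.17 (SE, adjusted p = 2.1e-05) and stood at 8.71 at 7 h, against 10.2 at 0 h. Nop58, a core protein of the box C/D particles that methylate RNA, was highest at 2 h (10.7) and lowest at 7 h (9.35), with a fitted change of -1.42 ± 0.17 (SE, adjusted p = 9.5e-05). Dkc1, the pseudouridine synthase of the box H/ACA particles, changed by -0.999. Fbl, the methyltransferase of the box C/D particles, was at 12.1, 12.2, 12.2, 12.2, 12.2, 12.1, 12.1 and 12.0 at 0 to 7 h. Its level without Epo thus stayed close to that of 0 h, where the other 4 genes of the role were called lower. Nop56, the partner of Nop58, changed by -0.34, called lower.

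Among the small subunit genes, Wdr36 changed the most. It encodes a protein of one of the complexes that bind the early precursor, and was at 9.74, 9.75, 9.41, 8.78, 8.71, 7.90, 7.92 and 7.74 at 0 to 7 h without Epo. That is a fitted change of -2.31 ± 0.20 (SE, adjusted p = 1.7e-05), 4.96-fold lower. Rrp9, which binds the U3 snoRNA that guides the first cuts, changed by -2.19 ± 0.23 (SE, adjusted p = 3.9e-05). Its largest step was between 4 h (8.18) and 5 h (7.42). Ltv1, an assembly factor of the late precursor of the small subunit, changed by -2.06 ± 0.16 (SE, adjusted p = 1.4e-05).

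Imp3, which joins that snoRNA to the precursor, fell early, as did Wdr3, another small subunit factor, which was at 10.3, 10.1 and 9.52 at 0, 1 and 2 h. Imp3 was at 10.4, 10.4, 9.70, 8.95, 9.06, 8.85, 8.78 and 8.63 without Epo. Most of its fitted change of -1.94 ± 0.26 (SE, adjusted p = 0.0002) was reached by 3 h. Its partners in the same complex differed from it, Mphosph10 changing by -1.004 and Imp4 by -0.16. Nob1, the nuclease that makes the last cut of the small subunit RNA, was the only member with a positive fitted change, at 9.46 at 7 h against 9.11 at 0 h, and did not pass the test (adjusted p = 0.15).

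Among the large subunit genes, Bop1 encodes a scaffold that forms a complex with Pes1 and Wdr12. It stood at 9.60, 9.68, 9.48, 8.84, 8.63, 7.94, 7.87 and 7.68 over 0 to 7 h without Epo. Its fitted change was -2.28 ± 0.20 (SE, adjusted p = 1.9e-05), 4.85-fold lower. The 3 partners did not move by the same amount, with fitted changes of -1.58 for Wdr12 and -0.60 for Pes1, both called lower, although the other probe set of Pes1 went up. Ebna1bp2, a nucleolar factor of the large subunit precursor, changed by -1.93 ± 0.24 (SE, adjusted p = 0.00012). Rrs1, which helps to bring the 5S particle to the precursor, was at 10.8 at 0 h, 10.1 at 2 h and 10.4 at 7 h, and was not called.

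The time at which the fall began varied. A drop of at least 0.5 below the gene's own 0 h level that lasted to 7 h began at 2 h in 5 members (Polr1b, Imp3, Wdr3, Grwd1 and Nop2), at 3 h in 11, at 4 h in 5, at 5 h in 14, at 6 h in 2 and at 7 h in 2. In 8 members no such drop was seen. Those that began at 3 h included 6 of the 19 small subunit genes and 3 of the 16 large subunit genes, while 7 large subunit genes and 4 small subunit genes began at 5 h. These counts rest on single arrays, carry no test and were not made over all genes.

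**Figure D2:**
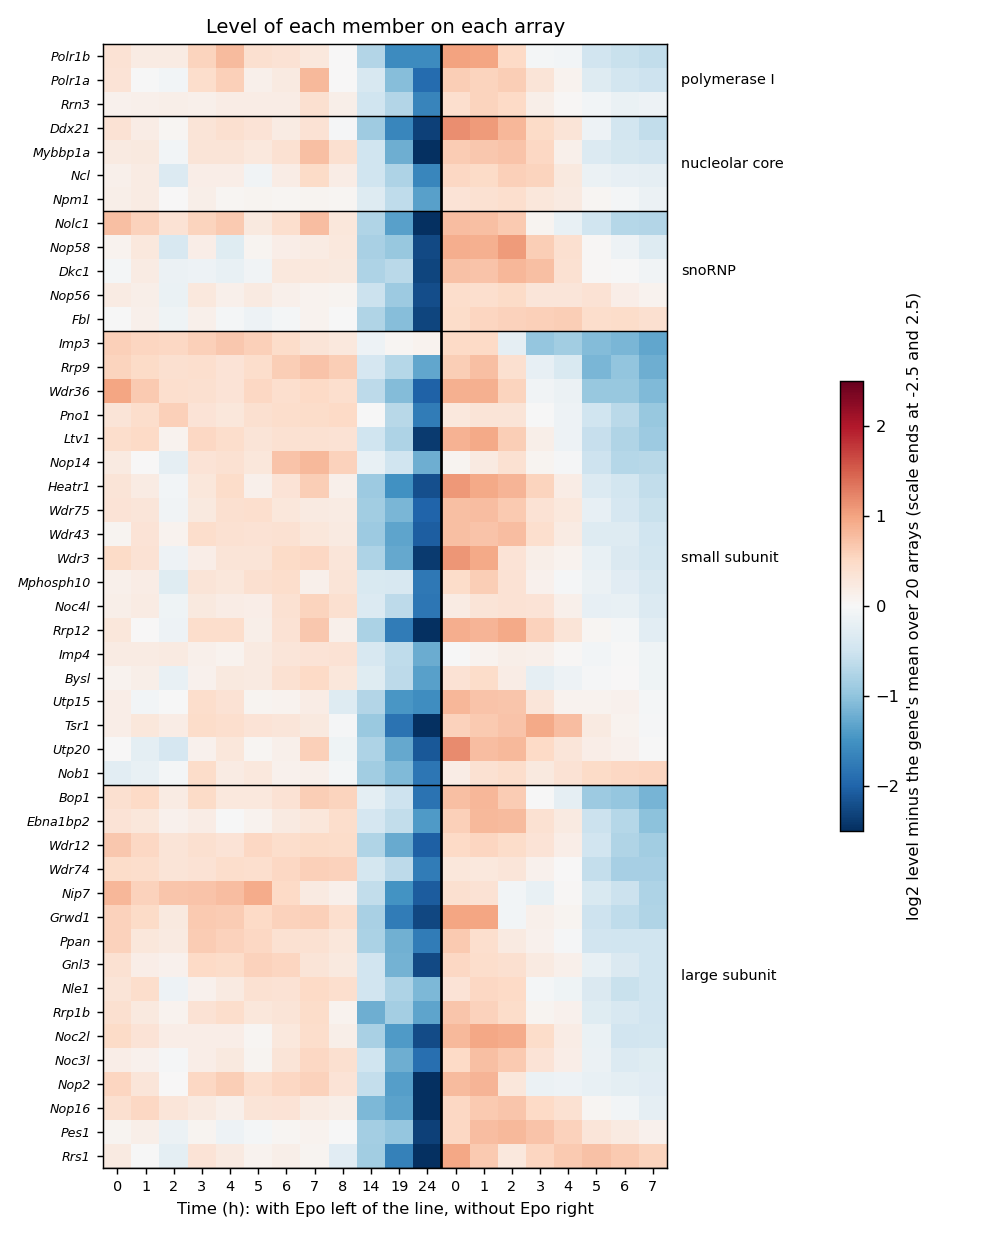
Level of each of the 47 members (rows, grouped by role) on each of the 20 arrays (columns, time in hours), as the log2 difference from the gene's own mean. Arrays with Epo lie left of the line and arrays without Epo right of it; blue marks low levels, which are found at 14 to 24 h with Epo in 46 members and at 5 to 7 h without Epo in most.

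With Epo, the same hours gave little change. Over 0 to 7 h with Epo, 1 member was called higher (2.21% of all genes) and no member was called lower (5.88% of all genes), and at an unadjusted p under 0.05 the counts were 6 higher and 0 lower. The median fitted change over the 7 h was 0.11, with a range of -0.37 (Wdr36) to 0.77 (Nop14). Nop14, an early factor of the small subunit, was at 7.73, 7.51, 7.29, 7.84, 7.89, 7.78, 8.22 and 8.32 at 0 to 7 h with Epo. Its lowest array was that of 2 h and its highest that of 7 h, a fitted change of 0.77 ± 0.21 (SE, adjusted p = 0.04). The call was lost when the array of 1, 3, 4, 6 or 7 h was left out (changes of 0.66 to 0.77). Polr1a changed by 0.43, Polr1b by 0.08 and Rrn3 by 0.21 with Epo, none of them called. Bop1 was at 9.25, 9.34, 9.05, 9.34, 9.11, 9.11, 9.22 and 9.46, and Rrp9 between 8.90 and 9.27 at 1 to 7 h. On the 2 h array the members were low together: their median, each gene centred on its own mean, was 0.02 at 2 h, against 0.24 at 1 h and 0.33 at 3 h.

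**Figure D3:**
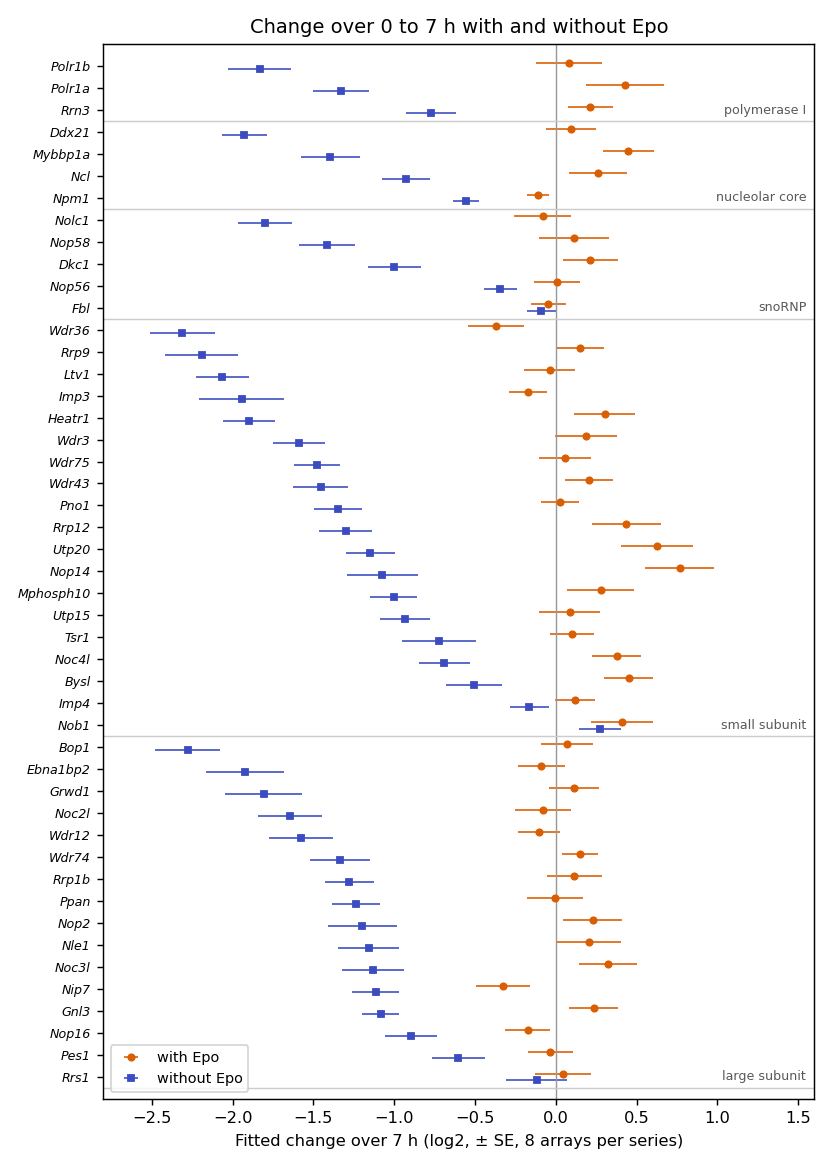
Fitted change over 0 to 7 h of each member (log2, x axis; points are the fit and bars its SE, 8 arrays per series), with Epo as circles above and without Epo as squares below in each row, grouped by role. The points with Epo lie between -0.37 and 0.77, and those without Epo between -2.31 and 0.27.

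Set against each other hour by hour, the series crossed. The median matched difference of the 47 members, Epo minus no Epo, was -0.32, -0.39, -0.50, 0.02, 0.20, 0.49, 0.71 and 0.89 at 0 to 7 h, while the median of all genes lay between -0.02 and 0.04. Epo was the higher of the pair in 8 members at 0 h, 25 at 3 h and 43 at 7 h. Among all 18194 genes it was the higher in 8800, 8952 and 9415 at those hours. At 5 to 7 h, all 3 arrays with Epo were above all 3 arrays without in 38 of 47 members and in 25.1% of all genes. By role, the median at 7 h was 0.88 for polymerase I, 0.84 for the nucleolar core, 0.34 for snoRNPs, 0.89 for the small subunit and 0.91 for the large subunit. At 0 h the same medians were -0.30, -0.40, -0.46, -0.41 and -0.25, so the crossing began from a lower level in the Epo series in each role.

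**Figure D4:**
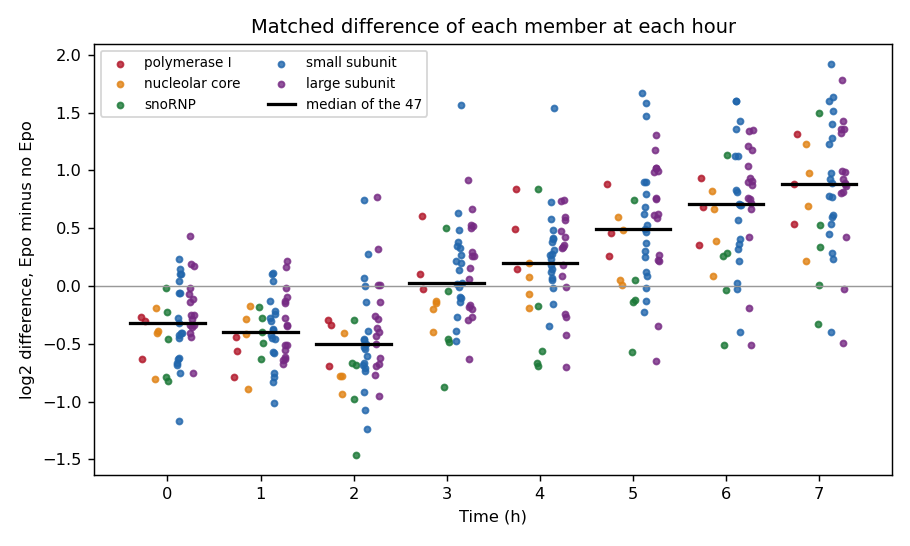
Log2 difference, Epo minus no Epo, of each of the 47 members (points, coloured by role) at each hour from 0 to 7 h (x axis), with the median as a bar. The median is below 0 up to 2 h, near 0 at 3 h and 0.89 at 7 h.

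The change of the Epo effect over 1 to 7 h was tested as the slope of the 7 matched differences. It was called higher in 42 of 47 members, against 7.26% of all genes called higher and 7.97% called lower, and all 47 members had a value above 0. The median over the 6 h was 1.48 for the members and -0.002 for all genes. The 5 members not called were Fbl, Nop56, Imp4, Nob1 and Rrs1, with values of 0.10, 0.43, 0.39, 0.06 and 0.02. Rrp9 had the largest value, 2.30 ± 0.23 (SE, adjusted p = 2.6e-05). It was at 9.05, 8.97, 8.98, 8.90, 8.999, 9.18 and 9.27 at 1 to 7 h with Epo and at 9.32, 8.97, 8.35, 8.17, 7.42, 7.58 and 7.35 without.

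Other large values were those of Bop1 (2.27 ± 0.23, SE, adjusted p = 3.2e-05), Heatr1 (2.18 ± 0.22, SE, adjusted p = 3.1e-05) and Nop14 (2.09 ± 0.28, SE, adjusted p = 0.00019). Heatr1 belongs to the factors that load on the precursor as it is transcribed. In the other roles, Polr1a had 1.87 ± 0.26 (SE, adjusted p = 0.00026), Ddx21 1.96 ± 0.20 (SE, adjusted p = 3e-05) and Nolc1 1.74 ± 0.22 (SE, adjusted p = 0.00012). Since the same arrays without Epo enter this slope and the fall described above, they are not separate evidence.

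Averaged over 1 to 7 h, the difference was smaller, since the median matched difference was below 0 up to 2 h and above 0 from 3 h. With time as a block, 10 of 47 members were called higher with Epo (18.2% of all genes) and 4 lower (20.2% of all genes), and the median was 0.18. The share called higher, 21.3%, was near that of all genes, and the share called lower, 8.51%, was below it. The counts depended on single hours: 17 higher and 3 lower without the 1 h pair, 16 and 3 without that of 2 h, 6 and 3 without that of 5 h, and 6 and 4 without that of 6 h or of 7 h. The median over these and the other left-out hours ran from 0.08 to 0.31. Imp3 had the largest value, at 10.3, 10.5 and 10.6 (lowest, median and highest of 1 to 7 h) with Epo and 8.63, 8.95 and 10.4 without, a mean difference of 1.26 ± 0.18 (SE, adjusted p = 0.00025). It was higher with Epo at all 7 hours, and the 1 h array was the only one without Epo within the range of the Epo arrays. Wdr74, a large subunit factor, did not overlap: it ranged from 10.34 to 10.61 with Epo and from 9.18 to 10.33 without (0.66 ± 0.17, SE, adjusted p = 0.01). No overlap at 1 to 7 h was seen in 2 of 47 members, Wdr74 and Fbl, and in 13.9% of all genes.

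Nip7, a factor of ribosomal RNA processing, was higher with Epo at each of the hours 1 to 7, by 0.85 ± 0.11 (SE, adjusted p = 9.1e-05), and already by 0.43 at 0 h. Pno1 and Wdr36 of the small subunit were higher by 0.65 ± 0.15 (SE, adjusted p = 0.004) and 0.72 ± 0.22 (SE, adjusted p = 0.024). Wdr36 lost its call when the pair of 5, 6 or 7 h was left out (0.57 to 0.61). It also lost its call (0.46) when probe sets with names ending in _s_at, _x_at or _a_at were left out. The 4 members called lower were Fbl, Pes1, Rrs1 and Nob1. Nob1 (-0.29, adjusted p = 0.039 in limma) lost its call with quantile normalization (-0.22) and without the pair of 1, 2, 4, 5, 6 or 7 h (-0.32 to -0.25). Fbl ranged from 11.504 to 11.76 with Epo and from 12.03 to 12.23 without, with no overlap, a difference of -0.52 ± 0.06 (SE, adjusted p = 4.4e-05). It was lower by 0.46 in the Epo series at 0 h too, as were Pes1 by 0.44, Rrs1 by 0.75 and Nob1 by 0.45.

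When the 0 h difference of each gene was subtracted, and a linear drift allowed for, 10 of 47 members were called higher (1.34% of all genes) and no member lower (2.39% of all genes). The median was 0.49 for the members and 0.01 for all genes, and 44 of 47 values were above 0. At an unadjusted p under 0.05 the counts were 24 higher and 0 lower. Imp3 (1.16 ± 0.29, SE, adjusted p = 0.042), Grwd1, a histone-binding factor of the large subunit (1.05 ± 0.21, SE, adjusted p = 0.017), Bop1 (0.99 ± 0.22, SE, adjusted p = 0.023) and Rrp9 (0.94 ± 0.21, SE, adjusted p = 0.026) had the largest called values. Fbl was at -0.06 and Rrs1 at 0.26 on this scale, neither called. This comparison rests on 1 pair of 0 h arrays: without the drift term no member was called, and leaving out the pair of 4, 5 or 6 h gave 6, 5 or 2 calls.

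Cell markers moved over the same hours. All 13 hepatocyte markers fell, with Epo (median -2.25) and without (median -2.18). Their summed level at 1 to 7 h was 12.92 to 14.56 with Epo and 12.4 to 13.7 without. Between the series at 1 to 7 h, 11 of the 13 were called higher with Epo and none lower, by limma's adjusted p or at an unadjusted p under 0.05. All 13 were already higher in the Epo series at 0 h (median difference 1.50). With the 0 h difference subtracted and a drift allowed for, none was called (median -0.37), with 2 lower at an unadjusted p under 0.05. Erythroid markers were called higher over time in 5 of 13 genes with Epo (median 0.49) and in 8 of 13 without (median 0.84). With Epo 1 was called lower, the receptor gene Kit, at -2.04. Between the series at 1 to 7 h, 9 of the 13 were called lower with Epo, and their summed level was 14.0 to 14.9 with Epo and 14.5 to 15.4 without at 1 to 7 h. Only 2 of these 13 erythroid markers were higher in the Epo series at 0 h (median difference -0.30). With that difference subtracted, 1 was called lower and none higher (median -0.41), with 6 lower at an unadjusted p under 0.05. On this scale no marker is at 0. Granulocyte markers were called lower in 2 of 11 genes with Epo and in 5 of 11 without. No macrophage marker of 11 was called in either series, with 2 lower at an unadjusted p under 0.05 in each. The part of these markers, and of the array controls, in the members' difference and in their fall without Epo was not tested.

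At the later times with Epo, every member was low. The mean of 14, 19 and 24 h was called lower than the mean of 1 to 8 h in 47 of 47 members, against 18.5% of all genes called lower and 17.6% called higher. The median was -1.42 for the members and 0.08 for all genes. All 3 late arrays were below all 8 arrays of 1 to 8 h in 46 members and in 14.3% of all genes, and Nop14 was the exception. A lower level at each step from 8 to 14, 19 and 24 h was seen in 44 members and in 15.4% of all genes. Dkc1, Imp3 and Rrp1b did not follow it. By role the medians were -1.40 for polymerase I, -1.42 for the nucleolar core, -1.37 for snoRNPs, -1.36 for the small subunit and -1.66 for the large subunit.

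Tsr1, a GTPase-like factor of the late small subunit precursor, changed the most. It was at 9.35, 8.44, 7.52 and 5.86 at 8, 14, 19 and 24 h, and the late mean was 7.28 ± 1.31 (SD, n = 3) against 9.66 ± 0.15 (SD, n = 8) at 1 to 8 h (-2.38 ± 0.34, SE, adjusted p = 0.00014 in limma). Rrp12, an export factor of the same precursor, was at 7.52, 6.60, 5.66 and 4.26 at those times (-2.15 ± 0.33, SE, adjusted p = 0.00022). Grwd1 was at 9.19, 7.96, 7.02 and 6.49 (-2.13 ± 0.22, SE, adjusted p = 1.8e-05). Each of the 3 genes was lower at each time than at the time before.

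Nolc1 was at 9.73, 8.70, 8.08 and 6.77 at 8, 14, 19 and 24 h (-2.08 ± 0.27, SE, adjusted p = 7.4e-05). Nop2, a methyltransferase of the large subunit RNA, was at 8.99, 8.06, 7.28 and 5.87 (-1.99 ± 0.30, SE, adjusted p = 0.00021). Polr1b was at 7.87, 7.13, 6.30 and 6.29 (-1.64 ± 0.19, SE, adjusted p = 3.7e-05), so that it was level between 19 and 24 h, while Polr1a went on down, to 6.77 at 19 h and 5.89 at 24 h. Members that were not called without Epo were low here: Fbl was at 11.6, 10.9, 10.6 and 9.32, Rrs1 at 9.53, 8.95, 8.13 and 6.78, and both were called lower. Imp3 showed the reverse pattern, with 10.2, 9.81, 9.98 and 10.0 and the smallest late difference of all members (-0.49), after a large fall without Epo.

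The 24 h array was the lowest of all 20 arrays in 46 of 47 members, and in the same number of members it was below the 7 h array without Epo. Imp3 was the exception to both. Neither count was made over all genes, so a share to set beside them is lacking. Without the 24 h array, 47 members were still called lower, with a median of -1.09. The standard deviation of the 24 h array over all probe sets was the smallest of all. Hepatocyte markers were called lower in 12 of 13 genes late (median -3.34), with a summed level of 8.89 to 11.3 at 14 to 24 h and of 12.87 to 14.56 at 1 to 8 h. Erythroid markers were called higher in 8 of 13 genes and lower in 1 (median 0.41), megakaryocyte markers higher in 4 of 8. Granulocyte markers were called higher in 5 of 11 genes and lower in 3, and macrophage markers higher in 3 of 11 and lower in none. The part of these values in the members' fall was not tested, and the series without Epo ends at 7 h, so that time and Epo cannot be told apart here.

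**Figure D5:**
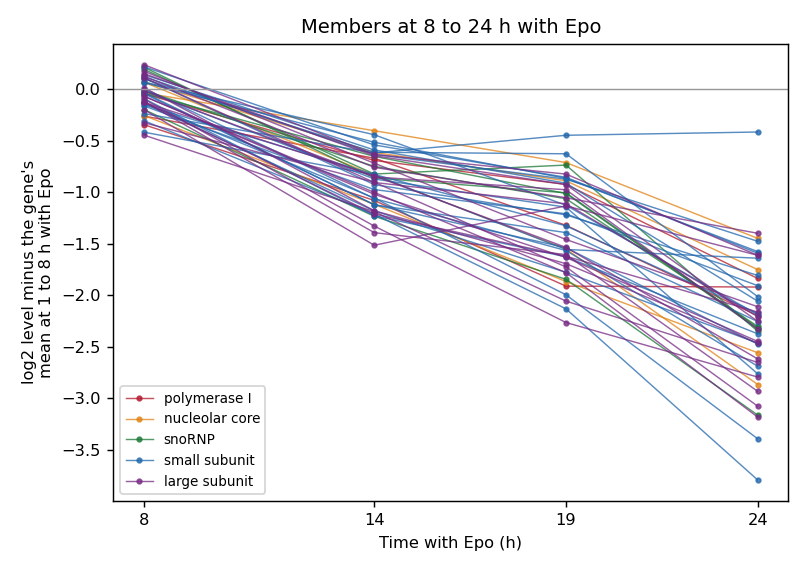
Log2 level of each member at 8, 14, 19 and 24 h with Epo minus its own mean at 1 to 8 h (y axis), with 1 line per gene coloured by role. All 47 lines lie below 0 at 14 h and later, and the highest line at 24 h is that of Imp3.

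Other genes of the pathway, on lists kept apart from the members, were also mostly called lower. Of 92 measured, 53 were called lower over time without Epo (15.4% of all genes) and 6 higher (13.3% of all genes), with a median of -0.68. Late with Epo, 79 were called lower (18.5% of all genes) and none higher (17.6% of all genes) in limma, with a median of -1.10. At an unadjusted p under 0.05, 1 was higher late. The change of the Epo effect was called higher in 49 of 92 (7.26% of all genes), with a median of 0.76. The other small subunit factors had 19 of 34 called lower without Epo, among them Pdcd11 (-2.17 ± 0.23, SE, adjusted p = 4.9e-05) and Utp18 (-2.12 ± 0.20, SE, adjusted p = 2.4e-05). The other large subunit factors had 24 of 43, among them the RNA methyltransferase gene Ftsj3 (-2.47 ± 0.27, SE, adjusted p = 5.2e-05) and Rpf2 (-2.01 ± 0.14, SE, adjusted p = 1.2e-05), the partner of Rrs1. Of the other snoRNP genes, 6 of 6 were called lower, among them the assembly factor gene Naf1 (-1.90 ± 0.20, SE, adjusted p = 4.5e-05).

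The other polymerase I genes were divided: 4 of 9 were called lower without Epo and 2 higher, with a median of 0.26. Polr1e, a subunit that helps the enzyme start and elongate, had the largest change of any gene on these lists (-2.97 ± 0.26, SE, adjusted p = 1.7e-05). The 46 cytosolic ribosomal protein genes, which encode the proteins of the finished ribosome, had a median of -0.04 over time without Epo, with 12 called lower and 2 higher. Late with Epo their median was 0.01, with 6 called lower and 3 higher. Of all genes, 15.4% were called lower and 13.3% higher over time without Epo, and 18.5% lower and 17.6% higher late with Epo. Between the series at 1 to 7 h, 24 of the 46 genes were called higher with Epo (18.2% of all genes) and 10 lower (20.2% of all genes). The median of that difference was 0.12, and its change had a median of 0.03. At 0 h, 26 of the 46 were higher in the Epo series, with a median difference of 0.05. With the 0 h difference subtracted and a drift allowed for, 2 were called higher (1.34% of all genes) and none lower (2.39% of all genes). The median was then 0.05.

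More than 1 probe set was present for 30 of the members. Of their 46 other probe sets, 40 were lower over 7 h without Epo by a straight line, and 43 were lower late with Epo. The 6 that were not lower without Epo were that of Pes1 (1.64, against -0.60 for the one reported), both of Imp4 (1.04 and 0.59, against -0.16), and 1 each of Utp15 (0.16), Bysl (0.14) and Polr1a (0.07, at a mean level of 1.99). With the mean of all probe sets of a gene, the changes without Epo were 0.52 for Pes1 (adjusted p = 0.052 in limma) and 0.49 for Imp4 (adjusted p = 0.014), and those of Bop1, Ebna1bp2 and Polr1a were -1.18, -0.91 and -0.76, all 3 still called lower.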

How the data were processed

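RNA of 20 samples was labelled with biotin and measured on mouse expression arrays, 1 array per sample, per the labels' protocols. The deposited values were taken to be on a log2 scale from their range of 1.37 to 14.56. The sources used here do not say how the authors summarised and scaled the probe intensities. Arrays have no read depth, and their number limits the precision. The table held 45101 probe sets, of which 34958 named 1 gene in the platform annotation and 932 named several; 9211 were unnamed here. For each of 18194 genes, only its probe set of highest mean over the 20 arrays was kept, and dim genes were not filtered out.

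The 6 comparisons were fitted with limma 3.58.1 in R 4.3.3 (lmFit, eBayes with trend) over all genes, with calls at p under 0.05 after Benjamini-Hochberg adjustment. The comparison over 1 to 7 h had time as a block. Fitted changes over time span 7 h, and the change of the Epo effect spans 6 h. Some comparisons share arrays. Tables and plots were made in Python 3.11.15 (matplotlib 3.10.9, pandas 2.3.3, numpy 2.4.6). The fits were also run on simulated data with 200 changed genes, and the outcome is not given here. The simulated noise was independent between arrays, so that run cannot test dependence between successive hours.

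The members, lists, tests and alternatives were chosen with earlier results of these data known. Fold, SE and adjusted p are given for the up to 6 largest rises and falls among called members of a comparison and the up to 2 largest of each role; of the other pathway lists, for the up to 2 largest called genes. Other members are named with their values, and the marker Kit was named after its values were seen. Of the 98 other pathway genes listed, 92 were measured. Promoter windows came from the RefSeq promoter table of GRCm38.p6. Alternatives were other scalings, other choices of probe set, the brighter genes only, another variance model, other uses of the 0 h arrays and other hours, and each hour left out.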

Additional observations from a re-analysis of the deposited data

Results flagged for a closer look

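The change over 1 to 7 h differed between the series in 42 members by the test of the difference itself, each moving up with Epo relative to no Epo. In log2 over the 6 h, with Epo minus without, the values of the named members were 1.87 for Polr1a, 1.66 for Polr1b, 1.96 for Ddx21, 1.91 for Mybbp1a, 1.605 for Nop58, 1.74 for Nolc1, 2.30 for Rrp9, 2.09 for Nop14, 2.04 for Wdr36, 2.18 for Heatr1, 2.27 for Bop1 and 2.04 for Ebna1bp2.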

How the results depend on the processing

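Over the scalings, probe set choices, variance model and hours tried, the number of members called stayed within 1.5 times the reported count for time without Epo (38 to 43 called lower), the change of the Epo effect (35 to 42 higher) and the late comparison (44 to 47 lower). Leaving out probe sets with names ending in _s_at, _x_at or _a_at kept 44 members. With the mean of all probe sets, Imp4 was called higher without Epo (0.49) and lower at 1 to 7 h (-0.48). In that setting Pes1 turned to 0.52 without Epo and to -0.09 for the change of the Epo effect, neither called. Leaving out 1 hour at a time gave 9 to 20 calls for the Epo effect at 1 to 7 h, 2 to 12 from each series' own 0 h, 38 to 42 for the change of the effect, 39 to 43 without Epo, 0 to 2 with Epo and 47 late. From own 0 h, eBayes without trend gave 2 calls and no drift term gave 0 (0.0165% of all genes called higher). With Epo, the reported single call became 3 with quantile normalization, 0 with eBayes without trend and 2 at 1 to 7 h only. It became 42, all lower, in a fit of 1 to 24 h on log2 hours, where Nop14 reversed to -0.17 (adjusted p = 0.26); that setting takes in the late arrays by its construction. Median centring moved the share of all genes called with Epo to 2.76% higher and 4.50% lower. Of 824 values of named members under alternatives, 771 kept their call, 52 lost it and 1 reversed; the cause was not tested. Signal over background was not used here, so no floor was set.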
